A study of Mus musculus with 7 samples.

Results

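The subject is a set of 9 genes of the red cell lineage, read in the bulk RNA of the embryonic mouse left ventricle. They were chosen by name: the alpha-type globins Hba-x, Hba-a1 and Hba-a2, the beta-type globins Hbb-y and Hbb-bh1, the haem synthesis enzyme Alas2, the membrane anion exchanger Slc4a1 (band 3) and the transcription factors Gata1 and Klf1. All 9 were found among the 23337 genes of the deposited count table, and all 9 passed the filter on low counts that left 14691 genes for testing. The left ventricle was microdissected at embryonic day 12.5 (E12.5), 1 day after the mother had received tamoxifen by intraperitoneal injection at E11.5. The 2 mutant embryos were Tbx5flox/flox and the 5 control embryos Tbx5+/+. All of them carried the tamoxifen-inducible Cre allele Gt(ROSA)26Sortm1(cre/ERT2)Tyj and were exposed to the drug, controls included. The ROSA26 locus drives Cre broadly and not only in cardiac muscle. Each library came from a single embryo, and no label says which embryos shared a litter, so the p-values measure the spread between these samples.

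Red cells reach the heart with the blood. Primitive erythroid cells arise in the yolk sac, enter the circulation together and mature there, and they make the embryonic globins zeta (Hba-x), epsilon-y (Hbb-y) and beta-h1 (Hbb-bh1) besides some adult alpha and beta globin. Definitive erythroid cells mature in the fetal liver, make adult globins (Hba-a1 and Hba-a2, and the adult beta genes) and enter the blood around this stage of mouse development. Beta-h1 is the earlier and epsilon-y the later embryonic beta-type globin of primitive cells. GATA1 and KLF1 bind GATA and CACCC sequences in globin promoters and enhancers. The summed globin transcripts were used as a reading of blood content, and the embryonic to adult balance as a reading of stage. In bulk tissue, fewer red cells and less RNA per red cell cannot be told apart.

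The alpha-type genes lie on chromosome 11 and the beta-type genes on chromosome 7 (GRCm38, GENCODE vM21 gene models). Hba-x is at chr11:32276400-32278116, Hba-a1 at chr11:32283511-32284465 and Hba-a2 at chr11:32296489-32297298, all on the plus strand, with 12023 bases between Hba-a1 and Hba-a2. On the minus strand, Hbb-y is at chr7:103851749-103853216, Hbb-bh1 at chr7:103841637-103843164, and the adult beta genes Hbb-bs and Hbb-bt at chr7:103826534-103828096 and chr7:103812524-103813996. The first 60 coding bases are printed because they show which globins a 50-base read can separate; each lies within 1 exon. Capitals mark bases that differ from Hba-a1 for alpha-type genes and from Hbb-bs for beta-type genes.
Hba-a1: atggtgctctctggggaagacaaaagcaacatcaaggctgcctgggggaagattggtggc
Hba-a2: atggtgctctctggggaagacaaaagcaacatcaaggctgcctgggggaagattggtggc
Hba-x: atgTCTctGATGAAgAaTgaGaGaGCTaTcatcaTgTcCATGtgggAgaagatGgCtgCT
Hbb-bs: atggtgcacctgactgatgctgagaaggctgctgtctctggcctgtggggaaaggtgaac
Hbb-bt: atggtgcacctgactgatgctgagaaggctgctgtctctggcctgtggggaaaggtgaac
Hbb-y: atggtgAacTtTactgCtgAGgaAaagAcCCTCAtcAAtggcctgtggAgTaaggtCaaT
Hbb-bh1: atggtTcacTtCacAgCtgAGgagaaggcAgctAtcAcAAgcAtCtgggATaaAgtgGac

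Over its 426 coding bases, Hba-a2 differed from Hba-a1 at 1 base, whereas Hba-x matched Hba-a1 at 61.7% of positions. Over their 441 coding bases, Hbb-bt differed from Hbb-bs at 1 base, and Hbb-y and Hbb-bh1 matched Hbb-bs at 74.4% and 73.9%. Of all 50-base stretches of the Hba-a1 transcript, 67.5% occur also in Hba-a2, and of those of Hba-a2, 86.9% occur in Hba-a1. Hbb-bs and Hbb-bt share 65.8% and 58.3% of theirs. For Hba-x, Hbb-y, Hbb-bh1, Slc4a1, Gata1 and Klf1 the share found in another gene was 0. For Alas2 it was 13.8%, mostly in Apex2, which overlaps Alas2 on the opposite strand of the X chromosome, and without strand information the reads of these genes cannot be told apart.

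The count table carried these similarities. Its Hba-a1 and Hba-a2 rows were identical in 7 of 7 libraries, so they are 1 measurement with 2 names, called the Hba-a row below. The adult beta rows Hbb-b1 and Hbb-b2 were identical in 6 of 7 libraries and differed by 1 count in the other. Another adult beta row, Beta-s (a synonym of Hbb-bs in RefSeq), had other values. The sources used here do not say which gene models the Hbb-b1 and Hbb-b2 rows counted. How reads matching several genes were counted is not given in the sources used here, so the globin shares and alpha-type to beta-type ratios are given both with identical rows counted once and with all rows summed. Values that rest on the Hba-a, Hbb-b1 or Beta-s rows are uncertain for this reason, and those of Hba-x, Hbb-y and Hbb-bh1 are not touched by it.

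Promoter sequence was compared because Hba-x and Hbb-y moved together across libraries, as described further on. RefSeq gave a promoter window (GRCm38.p6) for 7 of the 9 genes. The 150 bases before the RefSeq start are printed for the embryonic Hbb-y (chr7:103853208-103853357, minus strand) and the adult Hba-a2 (chr11:32296342-32296491, plus strand), with the CACCC motif and the CCAAT motif in capitals, each searched on both strands. The stretch of Hba-x is not printed, and its motifs are given in the next paragraph. The TATAAA motif was searched too and is not in these stretches.
Hbb-y promoter: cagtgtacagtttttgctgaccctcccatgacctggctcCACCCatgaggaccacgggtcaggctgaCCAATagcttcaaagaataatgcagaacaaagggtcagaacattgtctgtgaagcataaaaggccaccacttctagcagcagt
Hba-a2 promoter: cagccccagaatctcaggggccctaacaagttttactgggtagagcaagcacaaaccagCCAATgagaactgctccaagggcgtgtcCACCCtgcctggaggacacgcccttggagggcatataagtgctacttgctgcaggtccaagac

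In the longer window of 250 bases, GATAA was found at Hba-a1, Hba-a2, Hba-x, Hbb-y, Alas2 and Klf1 and not at Gata1, and 22.6% of all 32851 promoter windows hold it. CACCC was found at all 7, and 52.0% of all windows hold it. CCAAT was found at Hba-a1, Hba-a2, Hbb-y and Klf1, against 33.8% of all windows, and TATAAA at Hba-x and Alas2, against 12.4%. These are matches of letters and were not tested as binding sites. The printed Hba-a1 and Hba-a2 windows shared an identical run of 147 bases.

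The libraries held 20268208 and 22680280 counts in the 2 libraries labelled mutant and 20385656 to 24440806 counts in the 5 controls. Tbx5 itself had 1894 and 2602 counts in the libraries labelled mutant, against 1297 to 2165 counts in controls, so the whole-gene count does not show the deletion, and these libraries are named by their label throughout. Xist, the transcript of the inactive X chromosome, stood at 0.689 and 1.09 CPM (counts scaled to an equal library total) in control replicates 1 and 3 and at 311 to 509 CPM in the other 5 libraries, mutant-labelled ones included. Of the erythroid marker list, 7 of 8 genes were in the table, all with counts in every library. Cardiac muscle transcripts dominated, with 10 markers summing to 46320 and 49166 CPM in mutant-labelled libraries and 42568 to 46914 CPM in controls. The 6 fetal liver transcripts on the marker list summed to at most 3.82 CPM in mutant-labelled libraries and to 3.84 to 10.5 CPM in controls, near 0.

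No member passed the test between mutant-labelled and control libraries. By edgeR (quasi-likelihood F test, p adjusted over all 14691 genes), 0 of 9 members passed the adjusted p threshold of 0.05, against 1.36% of all genes tested (0.899% lower and 0.463% higher in mutant-labelled libraries), and at an unadjusted p under 0.05 the count was again 0 of 9, against 17.6% of all genes. DESeq2 and limma-voom also called 0 of 9, against 789 of 14580 and 119 of 14691 genes. At the adjusted threshold a count of 0 among 9 members is near the background in each of these tests. In all 9 the 2 groups overlapped, whereas 20.2% of all genes tested had both mutant-labelled libraries outside the control range. For 7 members the log2 fold change (mutant-labelled over control) was negative, as it was for 51.4% of all genes, and the Hba-a row, which is 2 of the 9 members, had a positive one. The median log2 fold change of the members was −0.27, against −0.01 over all genes tested.

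The embryonic beta-type globin Hbb-y was the most abundant erythroid transcript in every library. It stood at 3874 and 3965 CPM in mutant-labelled replicates 1 and 2, against 3465, 4855, 5605, 3228 and 7726 CPM in control replicates 1 to 5. Both mutant-labelled values lay inside the control range, above control replicates 1 and 4. The means were 3920 ± 64.7 CPM in mutant-labelled libraries (SD, n = 2) and 4976 ± 1824 CPM in controls (SD, n = 5), with a log2 fold change of −0.34 (SE 0.30, edgeR adjusted p = 0.598), and of −0.12 without control replicate 5. Hbb-bh1, the other embryonic beta-type globin, had 74.0 and 56.7 CPM in mutant-labelled libraries, against 29.4, 82.8, 113, 42.2 and 127 CPM in control replicates 1 to 5. Its control values ran from lowest in replicate 1 to highest in replicate 5, a 4.30-fold range that enclosed both mutant-labelled values (log2 fold change −0.27, SE 0.59, edgeR adjusted p = 0.852). Without control replicate 5, 3 or mutant-labelled replicate 2, the log2 fold change was −0.03, −0.10 or −0.08, and without control replicate 1, control replicate 4 or mutant-labelled replicate 1 it was −0.48, −0.43 or −0.48.

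The embryonic alpha-type globin Hba-x had 387 and 425 CPM in mutant-labelled libraries, against 329, 573, 785, 325 and 1014 CPM in control replicates 1 to 5. As with Hbb-y, control replicates 1 and 4 lay below the mutant-labelled libraries and replicates 2, 3 and 5 above them. The means were 406 ± 27.0 CPM in mutant-labelled libraries (SD, n = 2) and 605 ± 298 CPM in controls (SD, n = 5), and the log2 fold change was −0.58 (SE 0.44, edgeR adjusted p = 0.543), and −0.30 without control replicate 5. For the adult Hba-a row, the values were 739 and 838 CPM in mutant-labelled libraries, against 301, 826, 332, 606 and 471 CPM in control replicates 1 to 5. Mutant-labelled replicate 2 was the highest of all 7 libraries, and control replicate 2 lay between the 2 mutant-labelled libraries. The means were 788 ± 70.1 CPM in mutant-labelled libraries (SD, n = 2) and 507 ± 216 CPM in controls (SD, n = 5), with a log2 fold change of 0.64 (SE 0.34, edgeR adjusted p = 0.376). The 2 lowest Hba-a values belonged to control replicates 1 and 3, the libraries with almost no Xist. Over the 5 libraries with Xist, a comparison added after these values were seen, the log2 fold change was 0.32 (edgeR adjusted p = 0.691), and the part of Xist status in the difference was not tested.

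Adult beta globin, read from the Beta-s row, had 796 and 693 CPM in mutant-labelled libraries, against 976, 781, 743, 534 and 1337 CPM in control replicates 1 to 5. Both mutant-labelled values lay within the control range (log2 fold change −0.23, SE 0.29, edgeR adjusted p = 0.722). Without control replicate 5 the log2 fold change was −0.02, without mutant-labelled replicate 2 it was −0.12, and without control replicate 4 it was −0.36. The Hbb-b1 row, equal to Hbb-b2, had 207 and 394 CPM in mutant-labelled libraries, against 512, 291, 181, 309 and 369 CPM in control replicates 1 to 5. Here control replicate 1 was the highest library and control replicate 3 the lowest, and the fold change was −0.15 on the log2 scale (SE 0.37, edgeR adjusted p = 0.872). This sign was not stable, at 0.07 without control replicate 1 and 0.25 without mutant-labelled replicate 1. Among minor globins, Hbq1b, a theta-type gene of the alpha cluster, had 7 and 12 counts in mutant-labelled libraries and 9 to 29 counts in controls (log2 fold change −0.73, SE 0.54, edgeR adjusted p = 0.524), with log2 fold changes of −0.46 without control replicate 5 and −0.47 without mutant-labelled replicate 1. Hbq1a, with 7 and 1 counts in mutant-labelled libraries and 4 to 16 counts in controls, and Hbb-bh2, with 1 and 0 counts in mutant-labelled libraries and 0 to 5 counts in controls, did not pass the filter.

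**Figure D1:**
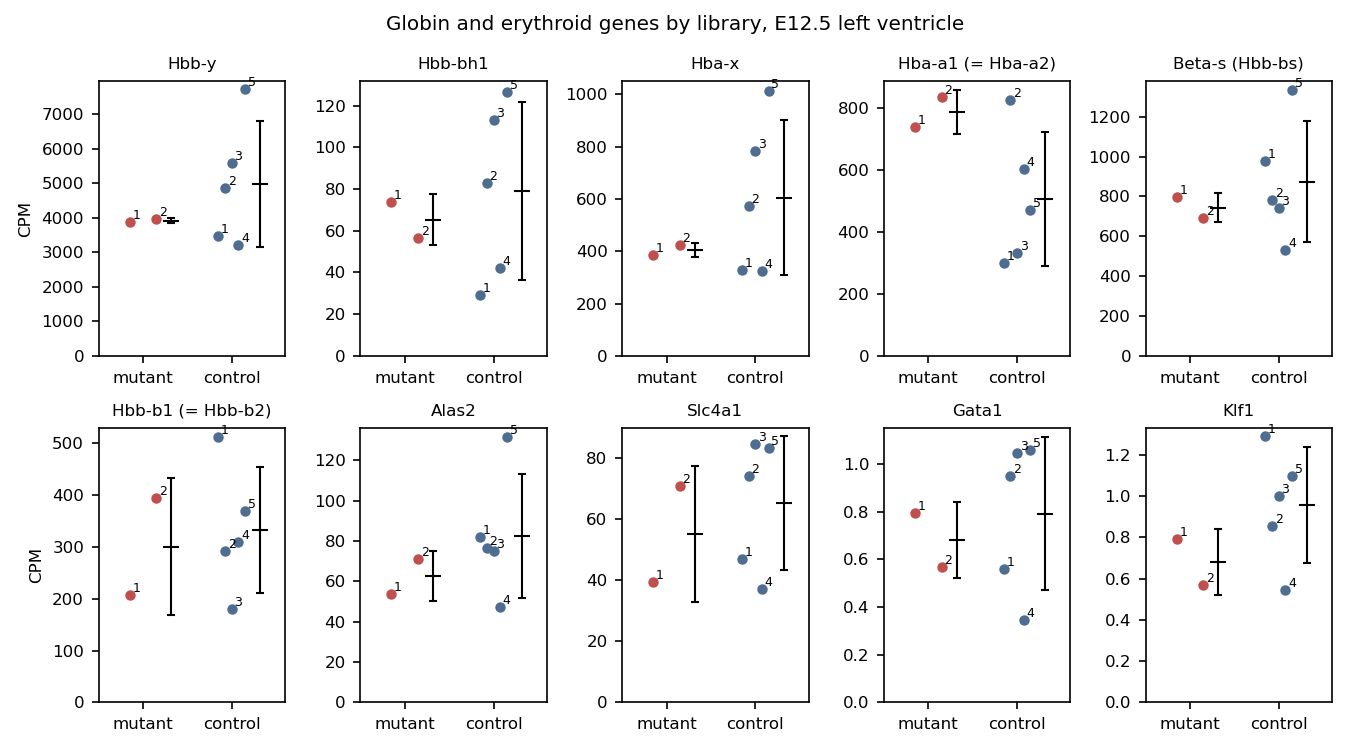
The CPM level (linear axes from 0) of each erythroid row in every library; numbers beside points are replicate numbers, and the dash with a bar is the group mean and SD (n = 2 mutant-labelled libraries, n = 5 controls). The groups overlap in every panel, and control replicate 5 is the highest control for Hbb-y, Hbb-bh1, Hba-x, Beta-s and Alas2 but not for the Hba-a1 row.

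The non-globin members were far less abundant. Alas2, the erythroid enzyme that starts haem synthesis, had 53.7 and 71.2 CPM in mutant-labelled libraries, against 81.8, 76.4, 75.3, 47.1 and 132 CPM in control replicates 1 to 5. Both mutant-labelled libraries lay below 4 of the 5 controls, and control replicate 4 lay below both (log2 fold change −0.40, SE 0.32, edgeR adjusted p = 0.563). The log2 fold change was −0.16 without control replicate 5, −0.21 without mutant-labelled replicate 1 and −0.61 without mutant-labelled replicate 2. Slc4a1, the chloride and bicarbonate exchanger of the red cell membrane, had 39.2 and 70.8 CPM in mutant-labelled libraries, against 47.0, 74.0, 84.5, 37.0 and 83.3 CPM in controls. Control replicates 4 and 1 were low together with mutant-labelled replicate 1 (log2 fold change −0.24, SE 0.35, edgeR adjusted p = 0.763), and without the last of these the log2 fold change was 0.12.

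The transcription factors were near the limit of this depth. Gata1, required for erythroid and megakaryocyte maturation, had 16 and 13 counts in mutant-labelled libraries, against 13, 20, 23, 7 and 26 counts in control replicates 1 to 5. Klf1, an activator of adult beta globin and of many red cell genes, had 16 and 13 counts in mutant-labelled libraries, against 30, 18, 22, 11 and 27 counts in control replicates 1 to 5. Control replicate 4 was the lowest library for both genes, and the groups overlapped. The log2 fold changes were −0.23 for Gata1 (SE 0.45, edgeR adjusted p = 0.833) and −0.51 for Klf1 (SE 0.39, edgeR adjusted p = 0.533), and without mutant-labelled replicate 2 they were 0.0055 for Gata1 and −0.27 for Klf1. Counting error alone gives a coefficient of variation of 23.7% for Gata1 and 21.5% for Klf1 in controls, where 40.5% and 29.3% were observed, whereas for Hbb-y counting error gives 0.298% and 36.7% was observed.

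The spread among control embryos was wide for all members. The standard deviation of log2 CPM over the 5 controls placed the members at percentiles 89.9 (Klf1) to 99.1 (Hbb-bh1) of all genes tested. From the lowest to the highest control, levels differed 2.28-fold for Slc4a1, 2.39-fold for Hbb-y, 2.74-fold for the Hba-a row, 2.80-fold for Alas2 and 3.11-fold for Hba-x. The 2 mutant-labelled libraries differed from each other 1.02-fold for Hbb-y, 1.10-fold for Hba-x and 1.80-fold for Slc4a1. With this spread and 2 mutant-labelled libraries, differences of the observed size were not detectable, and the tests do not show that the groups were alike.

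Levels of different genes were compared per transcript length, as FPKM, which is CPM divided by the transcript length in kilobases. Hbb-y reached 6192 ± 102 FPKM in mutant-labelled libraries (SD, n = 2) and 7861 ± 2882 FPKM in controls (SD, n = 5). Next came Beta-s, at 1185 ± 116 FPKM in mutant-labelled libraries and 1392 ± 482 FPKM in controls, and the Hba-a row with the length of Hba-a1, at 1128 ± 100 FPKM in mutant-labelled libraries and 726 ± 308 FPKM in controls. With the length of Hba-a2, the Hba-a row stood at 1423 ± 127 FPKM in mutant-labelled libraries and 915 ± 389 FPKM in controls. In mutant-labelled libraries the order of Beta-s and the Hba-a row thus depends on the length used. Hba-x stood at 507 ± 33.7 FPKM in mutant-labelled libraries and 756 ± 372 FPKM in controls. Within the controls, Beta-s, Hba-x and the Hba-a row were neighbours whose ranges overlapped. Lower on average were the Hbb-b1 row (451 ± 199 FPKM in mutant-labelled libraries, 499 ± 182 FPKM in controls), Hbb-bh1 (121 and 92.4 FPKM in mutant-labelled libraries, 129 ± 69.5 FPKM in controls), Alas2 (30.7 ± 6.08 FPKM in mutant-labelled libraries, 40.5 ± 15.1 FPKM in controls) and Slc4a1 (12.1 ± 4.91 FPKM in mutant-labelled libraries, 14.3 ± 4.80 FPKM in controls). The Hbb-b1 row exceeded Hba-x in mutant-labelled replicate 2 and in control replicates 1 and 4, and the Hba-a row in control replicate 1, so the order of these rows is one of group means and not of every library. Klf1 and Gata1 were under 1 FPKM in every library and did not differ beyond their spread.

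Read as blood content, haemoglobin rows took 0.699% and 0.766% of all counts in mutant-labelled libraries, against 0.644%, 0.860%, 0.817%, 0.591% and 1.19% in control replicates 1 to 5. The exact 95% binomial interval of mutant-labelled replicate 1 was 0.696% to 0.703% and each other interval was similarly narrow, so counting error, which is all these intervals cover, was small beside the spread between embryos. Both mutant-labelled libraries lay inside the control range, which was 2.02-fold wide. The difference of mean log2 shares was −0.12 (exact two-sided permutation test over 21 splits, p = 0.762, adjusted p = 0.889 over 7 readings; the smallest p this design allows is 0.0476). With identical rows counted once, the shares were 0.605% and 0.642% in mutant-labelled libraries and 0.500% to 1.11% in controls. Alas2 and Slc4a1 together, a blood reading that uses no globin row, gave 93.0 and 142 CPM in mutant-labelled libraries, against 129, 150, 160, 84.1 and 215 CPM in control replicates 1 to 5 (difference of mean log2 −0.30, exact permutation p = 0.524, adjusted p = 0.889). The differences were 0.026 for the haemoglobin share without control replicate 5 and 0.0095 for Alas2 plus Slc4a1 without mutant-labelled replicate 1. By both readings control replicate 4 was the lowest library and control replicate 5 the highest.

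The beta-type balance was embryonic in every library. Per transcript length and with identical rows counted once, Hbb-y and Hbb-bh1 made up 79.8% and 78.9% of beta-type globin in mutant-labelled libraries, against 70.4%, 82.3%, 86.1%, 79.7% and 82.2% in control replicates 1 to 5. Control replicate 1 was the lowest library and control replicate 3 the highest, with the mutant-labelled libraries between them. With all rows summed the shares were 76.8% and 73.5% in mutant-labelled libraries and 64.1% to 84.0% in controls (difference of mean log2 −0.01, exact permutation p = 0.952, adjusted p = 0.952), and the difference was positive, at most 0.025, without mutant-labelled replicate 2 or control replicate 2, 3 or 5. Within the embryonic pair, Hbb-y exceeded Hbb-bh1 by 50.7-fold and 67.8-fold in mutant-labelled libraries, against 114-fold, 56.8-fold, 47.9-fold, 74.0-fold and 59.0-fold in control replicates 1 to 5. Control replicate 1 had the widest gap between them (difference of mean log2 −0.19, exact permutation p = 0.667, adjusted p = 0.889), and the difference was 0.015 without mutant-labelled replicate 1.

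The alpha-type balance varied far more. Zeta globin (Hba-x) made up 31.4% and 30.7% of alpha-type globin per length in mutant-labelled libraries, against 48.8%, 37.7%, 67.4%, 31.9% and 65.3% in control replicates 1 to 5, with the Hba-a row counted once. With both rows summed the shares were 16.8% and 16.4% in mutant-labelled libraries, against 29.7%, 21.1%, 47.7%, 17.2% and 45.4% in control replicates 1 to 5. Both mutant-labelled libraries lay below all 5 controls in either treatment, though mutant-labelled replicate 1 and control replicate 4 differed by less than 1 percentage point. The difference of mean log2 shares was −0.84 with both rows summed and −0.63 with the row counted once, each with an exact permutation p of 0.0952 and an adjusted p of 0.444, so it did not pass the threshold. Over the 5 libraries with Xist the difference was −0.62 (exact permutation p = 0.3, where 10 splits allow no p below 0.1).

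With identical rows counted once, the ratio of all embryonic globins to the Hba-a row was 6.36 and 5.74 in mutant-labelled libraries, against 13.8, 7.21, 21.1, 6.43 and 20.3 in control replicates 1 to 5. With the Hba-a rows both summed it was 2.81 and 2.54 in mutant-labelled libraries, against 6.08, 3.19, 9.33, 2.84 and 8.98 in control replicates 1 to 5. Mutant-labelled replicate 1 lay just under control replicate 4, and control replicates 1, 3 and 5 stood well above the other 4 libraries (difference of mean log2 −1.02, exact permutation p = 0.190, adjusted p = 0.444). Alpha-type over beta-type globin was 0.197 and 0.215 per length in mutant-labelled libraries, against 0.107, 0.200, 0.139, 0.196 and 0.128 in control replicates 1 to 5, with identical rows counted once. With all rows summed it was 0.354 and 0.375 in mutant-labelled libraries and 0.161 to 0.341 in controls (difference of mean log2 0.67, exact permutation p = 0.190, adjusted p = 0.444). By either sum, beta-type counts per length exceeded alpha-type counts per length in all 7 libraries. Both sums rest on the Hba-a row, whose treatment of reads matching several genes is not given, so they do not settle transcript numbers.

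**Figure D2:**
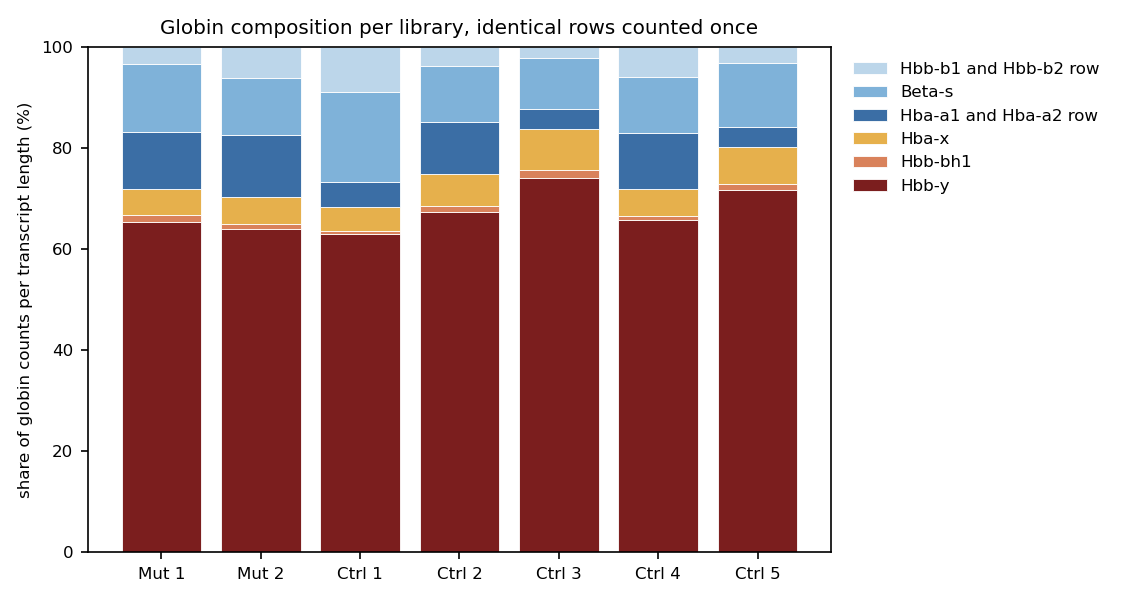
Share of each globin in the globin counts of a library, after division by transcript length (percent, identical rows counted once), for mutant-labelled replicates 1 and 2 (Mut) and control replicates 1 to 5 (Ctrl). Warm colours are embryonic and blue colours adult globins; Hbb-y holds 63.0% to 74.1% in every library, and the Hba-a row 11.3% and 12.3% in mutant-labelled libraries, against 5.0%, 10.4%, 4.0%, 11.2% and 4.0% in controls.

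Counts of the Hba-a row were 0.929 and 1.21 times those of Beta-s in mutant-labelled libraries, against 0.309, 1.06, 0.447, 1.13 and 0.352 times in control replicates 1 to 5, a 3.92-fold range over all libraries. Control replicates 1, 3 and 5 had the low ratios, and control replicates 2 and 4 stood with the mutant-labelled libraries. By contrast Hbb-y exceeded Hba-x per length by 12.7-fold and 11.8-fold in mutant-labelled libraries, against 13.3-fold, 10.7-fold, 9.04-fold, 12.5-fold and 9.65-fold in control replicates 1 to 5, a 1.47-fold range. Hbb-y and Hba-x transcripts thus kept a steadier proportion than the Hba-a and Beta-s rows did. The Beta-s and Hbb-b1 rows, both adult beta, also varied against each other. Their count ratios were 3.85 and 1.76 in mutant-labelled libraries and 1.72 to 4.11 in controls, a 2.38-fold range over all libraries. The embryonic ratio of Hbb-y to Hbb-bh1 had the same range of 2.38-fold, so steadiness was not shared by every embryonic pair. The part of the uncertain read counting of the adult rows in these contrasts was not tested.

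Across the 7 libraries, summed haemoglobin rose with the sum of Alas2 and Slc4a1 (log2 CPM, Pearson r = 0.886, exact permutation p = 0.00774, adjusted p = 0.0232 over 3 relations; Spearman rho = 0.929, exact permutation p = 0.00675, adjusted p = 0.0202). Within the 5 controls r was 0.927. Without control replicates 5 and 4, the 2 libraries farthest from the median, r was 0.636, so the relation rests in part on these libraries. It missed the threshold without control replicate 4 alone (r = 0.843, exact permutation p = 0.0569) and without control replicate 5 alone (r = 0.807, exact permutation p = 0.0681). Gata1 plus Klf1 against Alas2 plus Slc4a1 gave r = 0.708 (exact permutation p = 0.0774, adjusted p = 0.0774) and rho = 0.821 (exact permutation p = 0.0341, adjusted p = 0.0512), and r was 0.944 without control replicate 4 and mutant-labelled replicate 2 but 0.454 without control replicate 4 alone (exact permutation p = 0.339). The zeta share against Alas2 plus Slc4a1 gave r = 0.737 (exact permutation p = 0.0653, adjusted p = 0.0774) and rho = 0.643 (exact permutation p = 0.139, adjusted p = 0.139), with r = 0.393 without control replicates 3 and 5.

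All 28 pairs of 8 rows were then compared, a set chosen after the values were seen. Hba-x and Hbb-y, from different chromosomes, ranked the 7 libraries in the same order (r = 0.988, exact permutation p = 0.000198, adjusted p = 0.00556; rho = 1, exact permutation p = 0.000397, adjusted p = 0.0111), and both unadjusted values are the smallest that these pairings allow. Without control replicates 5 and 3, r was 0.984. Hbb-bh1 had r = 0.904 with Hba-x and r = 0.881 with Hbb-y, each with an exact permutation adjusted p of 0.0796, and rho = 0.929 with both, each with an exact permutation adjusted p of 0.0378. Slc4a1 had the same rho of 0.929 with Hba-x and with Hbb-y (exact permutation adjusted p = 0.0378 for both rho values). The r values of Slc4a1 were 0.850 with Hba-x and 0.813 with Hbb-y (exact permutation adjusted p = 0.106 for both r values). Beta-s had r = 0.891 with Alas2 (exact permutation adjusted p = 0.0986), which was 0.274 without control replicates 5 and 4. The Hba-a row had r between −0.37 and 0.10 with the other 7 rows: −0.18 with Hbb-y, −0.37 with Beta-s, −0.11 with Hbb-b1 and −0.36 with Alas2, none past the threshold in the exact permutation test. These values depend on few libraries: without control replicates 5 and 3, r was 0.59 with Hbb-y and 0.66 with Hba-x, and without control replicates 1 and 4 it was −0.83 with Hbb-bh1.

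**Figure D3:**
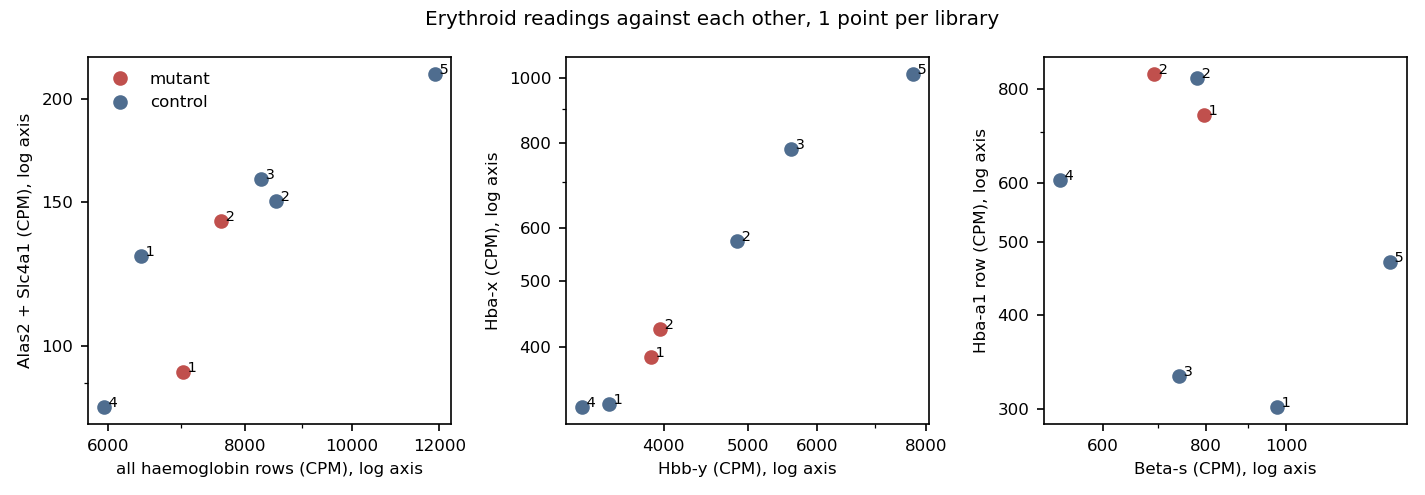
The plot shows pairs of erythroid readings in CPM (both axes logarithmic), 1 point per library with its replicate number, mutant-labelled libraries in red and controls in blue. Haemoglobin rows rise with Alas2 plus Slc4a1 (r = 0.886) and Hba-x with Hbb-y (r = 0.988), while the Hba-a1 row and Beta-s have r = −0.37.

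The genes whose log2 CPM most resembled the mean of the 9 members over the 7 libraries, among 13381 genes of at least 1 mean CPM, were Lrrc42 (r = 0.984), Ddx23 (r = 0.972), Atf5 (r = 0.964), Cdkn1c (r = 0.963), Mri1 (r = 0.960), Setd3 (r = 0.954), Cpsf3l (r = 0.953) and Rab4a (r = 0.952). None of 57 other erythroid list genes ranked among the first 100, and for 100 of 13381 genes a count of 0 is near the background. Their ranks ran from 144 (Gypc) to 12876 (Tfrc). The mean of the members gives the Hba-a measurement double weight, and the r values are a description over 7 libraries out of many genes. With Hbb-y alone as the guide, a choice made after the values were seen, Hba-x ranked first of 13387 genes and Hbb-bh1 ranked 70. Of 56 non-globin erythroid genes, 6 had r above 0.8, against 1.96% of all genes ranked, and 12 had r below 0. The median r of these 56 genes was 0.43, against −0.01 for all genes ranked. The genes above 0.8 included the members Alas2 (r = 0.816) and Slc4a1 (r = 0.813). The others were Lyl1 (r = 0.956), a blood transcription factor, Gypc (r = 0.873), a membrane sialoglycoprotein of red cells, Kel (r = 0.832), the Kell blood group protein, and Alad (r = 0.818), the enzyme after ALAS in haem synthesis. Among the 12 below 0, Tfrc, the transferrin receptor, had the lowest value (r = −0.861), followed by the haem synthesis genes Uros (r = −0.52) and Ppox (r = −0.49).

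The wider red cell programme was read from 5 further lists, in which 66 genes were tested and the edgeR test called 0 in either direction, against 1.36% of all genes, a share at which a count of 0 is near the background, while 10 of 66 had an unadjusted p under 0.05, against 17.6% of all genes. DESeq2 called 1, Steap3, against 789 of 14580 genes, and limma-voom called 0, against 119 of 14691 genes. The log2 fold change was negative for 41 of the 66, and 11 did not overlap between groups, with 7 below and 4 above the controls in mutant-labelled libraries, against 20.2% of all genes in either direction. All 4 tested adult and minor globins, described above, had negative log2 fold changes, as did 51.4% of all genes. Of these 4 rows, Hbb-b1 and Hbb-b2 are 1 measurement, and its sign was not stable when 1 library was left out.

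Haem synthesis and iron genes, 17 tested with a median log2 fold change of 0.00, include many that every cell uses. Tfrc, the transferrin receptor, had 127 and 132 CPM in mutant-labelled libraries and 88.2 to 140 CPM in controls. Tmem14c, a mitochondrial porphyrin transporter, had 107 and 99.1 CPM in mutant-labelled libraries and 94.6 to 123 CPM in controls, and Fech, which inserts iron into haem, had 80.5 and 85.7 CPM in mutant-labelled libraries and 71.4 to 97.7 CPM in controls. The groups overlapped for these genes, and their log2 fold changes were 0.07, −0.08 and −0.04. Steap3, an endosomal iron reductase named after its values were seen, averaged 25.9 ± 0.580 CPM in mutant-labelled libraries and 18.9 ± 2.06 CPM in controls, with no overlap, and did not pass the threshold (log2 fold change 0.45, SE 0.12, edgeR adjusted p = 0.0865).

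In the membrane and skeleton list, 18 genes were tested, with a median log2 fold change of −0.05. Slc2a1, a glucose transporter, had 198 and 256 CPM in mutant-labelled libraries and 245 to 266 CPM in controls, and Epb4.1, protein 4.1 of the membrane skeleton, had 106 and 140 CPM in mutant-labelled libraries and 106 to 140 CPM in controls. Spnb1, beta-spectrin of red cells, which striated muscle also makes, had 81.1 and 128 CPM in mutant-labelled libraries, against 43.6 to 76.7 CPM in controls. Its groups did not overlap and its log2 fold change of 0.83 did not pass the threshold (SE 0.22, edgeR adjusted p = 0.102). In the authors' deposited table of 668 genes, Spnb1 is listed with a log2 fold change of 0.82 and a false discovery rate of 0.00133, and Steap3 with 0.45 and 0.0343. That deposited table of the authors lists 0 of the 9 members and 0 haemoglobin rows. With 668 genes listed, against 23337 in the count table, a count of 0 among 9 members is near the background. Slc14a1, a urea transporter chosen for its size after its values were seen, averaged 0.0962 ± 0.0742 CPM in mutant-labelled libraries and 0.510 ± 0.129 CPM in controls (log2 fold change −2.37, SE 0.61, edgeR adjusted p = 0.0858).

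Erythroid transcription factors, 14 tested, had a median log2 fold change of −0.03. Ldb1, the bridging cofactor of the GATA1 complex, had 145 and 163 CPM in mutant-labelled libraries and 144 to 167 CPM in controls. Zfpm1 (FOG1), the GATA1 partner, had 40.1 and 44.5 CPM in mutant-labelled libraries and 33.2 to 42.1 CPM in controls, and Klf3, a repressor of the KLF family, had 31.0 and 29.2 CPM in mutant-labelled libraries and 23.6 to 31.0 CPM in controls. Groups overlapped for all 3. Heart cells also express these genes, and they varied less between controls than the members did: the median control SD of log2 CPM was 0.19 for this list and 0.60 for the members.

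Terminal red cell genes, 13 tested, had a median log2 fold change of −0.25. The log2 fold change was negative in 11 of them, against 51.4% of all genes tested. In 5 of the 13 the groups did not overlap (Prdx2, Epor, Car2 and Blvrb below the controls, Xpo7 above), against 20.2% of all genes. Prdx2, a peroxidase abundant in red cells, had 624 and 583 CPM in mutant-labelled libraries, against 630 to 714 CPM in controls (log2 fold change −0.17, SE 0.09, edgeR adjusted p = 0.345). Bnip3l, which drives removal of mitochondria, had 187 and 227 CPM in mutant-labelled libraries and 194 to 233 CPM in controls, and Xpo7, a nuclear exporter of maturing erythroblasts, had 127 and 130 CPM in mutant-labelled libraries and 112 to 121 CPM in controls. Prdx2 lay below and Xpo7 above every control in both mutant-labelled libraries, whereas Bnip3l overlapped. Epor, the erythropoietin receptor, Car2, carbonic anhydrase 2, and Blvrb are named after their values were seen. Epor averaged 1.75 ± 0.187 CPM in mutant-labelled libraries and 2.81 ± 0.182 CPM in controls (log2 fold change −0.68, SE 0.21, edgeR adjusted p = 0.137), and Car2 28.7 ± 0.369 CPM in mutant-labelled libraries and 39.8 ± 6.43 CPM in controls (log2 fold change −0.47, SE 0.15, edgeR adjusted p = 0.152). Without control replicate 4, Car2 was called lower (edgeR adjusted p = 0.0249).

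Markers of other cells that circulate or live in the heart were read beside these genes. Megakaryocyte and platelet markers summed to 14.2 and 16.9 CPM in mutant-labelled libraries and 17.7 to 40.1 CPM in controls. All 8 tested had negative log2 fold changes, against 51.4% of all genes, and edgeR called 0 of them, against 1.36% of all genes. Mast cell markers summed to 4.96 and 3.15 CPM in mutant-labelled libraries and 4.65 to 6.90 CPM in controls. Macrophage markers summed to 183 and 126 CPM in mutant-labelled libraries and 189 to 272 CPM in controls, and 3 of 10 fell in mutant-labelled libraries (C1qa, C1qc and Lyz2, edgeR adjusted p = 0.0206, 0.0304 and 0.0471), against 0.899% of all genes tested called lower. Endothelial markers summed to 677 and 1021 CPM in mutant-labelled libraries and 775 to 1079 CPM in controls. Of 10 cardiomyocyte markers, the atrial light chain Myl7 was the 1 called, at 448 ± 42.5 CPM in mutant-labelled libraries and 1109 ± 298 CPM in controls (log2 fold change −1.31, SE 0.25, edgeR adjusted p = 0.0417). When each of the 7 libraries was left out in turn, C1qa stayed called in 4 fits, C1qc and Lyz2 in 3 each and Myl7 in 2, all lower in every fit. The part of these cell types in the erythroid values was not tested.

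**Figure D4:**
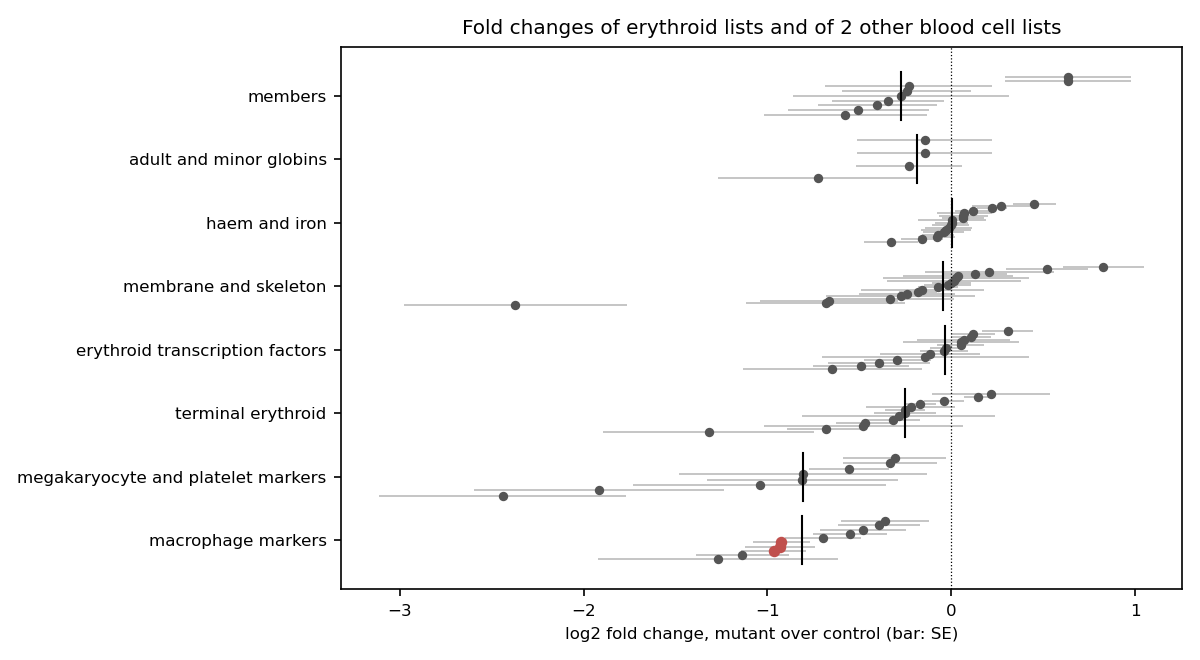
Log2 fold change of each tested gene, mutant-labelled over control libraries, with its SE as a grey bar, for the members, 5 other erythroid lists and 2 lists of other blood-derived cells; black ticks are list medians. Red points passed an edgeR adjusted p of 0.05, and the 3 red points are macrophage markers, with 0 in the erythroid lists.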

How the data were processed

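The authors deposited a table of unnormalized counts, 1 row per gene symbol and 1 column per library. A further deposited table lists the genes of the authors' own comparison, each with a log fold change (read as log2, since it lies close to the fold changes found here), p-value and false discovery rate. Per the labels' protocols, libraries came from oligo-dT selected RNA with a TruSeq RNA v2 kit, which does not mark strand, and were sequenced as 50-base single-end reads. Per the submitters' processing notes, the build was mm10, and edgeR 3.16.5, limma 3.30.13, R 3.3.2, featureCounts and TopHat2 2.1.1 are named. What each did, the annotation, the strand setting and how multiply matching reads were counted is not given in the sources used here.

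Counts were analysed with R 4.3.3 and edgeR 4.0.16. filterByExpr (minimum count 10, minimum total 15) left 14691 of 23337 genes. The fit over all 7 libraries (glmQLFit with robust estimation, then glmQLFTest) used TMM scaling and a term for genotype, with Benjamini-Hochberg adjustment over all genes tested and a threshold of 0.05. The test was tested on simulated data. CPM values use TMM-scaled totals. FPKM divides CPM by GENCODE transcript length. The Hbb-b1 and Hbb-b2 rows used 665.5 bases, the mean of Hbb-bs and Hbb-bt. Where the Hba-a row was counted once, it used the length of Hba-a1. Group differences of summed readings were tested by exact two-sided permutation over 21 splits on log2 values. Relations were tested by exact permutation of pairings on log2 values without a prior count. The ranking of genes by likeness and the control SD of log2 CPM used a prior count of 2. Confidence intervals are exact binomial at 95%.

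The members and lists were chosen with earlier results of these data known. The rule for named genes took every member, every adult or minor globin of the table, the called genes and the 3 most abundant genes of each other erythroid list, and the 8 genes most like the members, with predicted symbols passed over. Synonyms matched Beta-s, Spnb1, Mfsd7b, 2010011I20Rik and Emr1 to Hbb-bs, Sptb, Flvcr1, Fam210b and Adgre1. Some genes of the lists are not reported here by name. Alternatives were other size factors, scaling without haemoglobin genes, no filter, no robust estimation, DESeq2 1.42.0, limma-voom (limma 3.58.1), the replicate number as a block and each library left out. Counting identical rows once, the 5 libraries with Xist above 10 CPM, the 28 pairs and the likeness to Hbb-y were chosen after seeing the data. The chi-square per degree of freedom between libraries of a group was 9.99 to 31.9, so none was a copy of another.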

Additional observations from a re-analysis of the deposited data

How the results depend on the processing

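The count of 0 of 9 members called held under every alternative run. These alternatives called at most 811 of 14691 genes (with the replicate block), so a count of 0 among 9 members is near the background. Of 195 values of single erythroid genes under these alternatives, 188 kept their direction and side of the threshold and 7 changed sign, the cause of which was not tested. Hba-a1 with Hba-a2 and Hbb-b1 with Hbb-b2 enter under both names. The sign changes of the Hbb-b1 row are among the 7 under both. Replicate numbers showed no pairing of the libraries (correlation of deviations 0.08 and 0.01). With 2 mutant-labelled libraries, whose deviations mirror each other, these 2 correlations are not separate. With the replicate block the log2 fold change was 0.37 for Hbb-bh1, −0.10 for Hba-x and −0.07 for Hbb-y. Only replicates 1 and 2 hold both groups, so these libraries alone set the fold changes of that fit. It called 2 genes of the other erythroid lists (Steap3 and Car2) and 811 of all genes. DESeq2 called 1 gene of those lists (Steap3) and 789 of all genes, and leaving out 1 library gave 0 to 1, with Car2 called without control replicate 4. Calls over all genes fell to 12 without mutant-labelled replicate 2, to 78 and 72 without control replicates 1 and 2, to 119 with limma-voom and to 66 over the libraries with Xist. Without control replicate 1 the Hbb-b1 and Hbb-b2 rows stood at 0.07, and without mutant-labelled replicate 1 at 0.25. Leaving out 1 library, Slc4a1 ranged from −0.72 to 0.12 (positive without mutant-labelled replicate 1) and Gata1 from −0.48 to 0.0055 (positive without mutant-labelled replicate 2). In the same way, the difference in log2 ranged from −0.23 to 0.026 for the haemoglobin share (positive without control replicate 5), −0.073 to 0.025 for the embryonic share of beta-type globin, −0.40 to 0.015 for Hbb-y over Hbb-bh1 and −0.60 to 0.0095 for Alas2 plus Slc4a1 (both positive without mutant-labelled replicate 1). It ranged from −1.04 to −0.67 for the zeta share, −1.25 to −0.82 for embryonic over adult alpha globin and 0.54 to 0.81 for alpha-type over beta-type globin. The correlation of haemoglobin with Alas2 plus Slc4a1 ranged from 0.807 to 0.936 and missed the threshold without control replicate 4 (r = 0.843, exact permutation p = 0.0569) or 5 (r = 0.807, exact permutation p = 0.0681). That of the zeta share ranged from 0.592 to 0.849 and that of Gata1 plus Klf1 from 0.454 to 0.833, both passing the unadjusted threshold without mutant-labelled replicate 2 and the second also without mutant-labelled replicate 1 (r = 0.819). Gata1, Klf1 and the minor globins are limited by their low counts.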
